A study of Homo sapiens with 8 samples.

Results

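The interferon response genes described here were 37 well-known targets and factors of interferon signalling, chosen by name. A gene entered with the probe sets annotated to its symbol alone, and was represented by the one with the highest mean over the 8 arrays. Probe sets of a cross-hybridizing type were used only in the absence of another, even where they were brighter. Of the 37 genes, 36 had a probe set of their symbol alone among the 19775 genes measured in this way, and STAT2 was not analysed here. The cells were H9, an established human embryonic stem cell line, grown on mitotically inactivated mouse fibroblast feeders and then differentiated toward blood in a serum-free medium that contained BMP4. Each of 4 groups had 2 arrays: undifferentiated, unsorted cells at day 0, and cells sorted as positive for both KDR and CD31 at day 4, day 6 and day 8. KDR is a receptor for VEGF, CD31 (gene PECAM1) is an adhesion molecule of endothelium and blood cells, and cells carrying both include the precursors from which blood and vessels form. The labels name no interferon treatment in any group. Every comparison with day 0 is therefore between sorted differentiating cells and an unsorted culture, so that the day and the sort cannot be told apart, and all groups come from 1 line. In whole populations of cells, fewer expressing cells and less RNA per cell cannot be told apart.

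Interferons are secreted proteins that act through paired receptors and the JAK kinases. Type I interferons act through a factor complex that includes STAT2 and IRF9 and binds an element of repeated GAAA blocks in target promoters, and targets of interferon gamma often carry a shorter palindrome. The targets include the IFIT and OAS proteins that act on viral RNA, the IFITM proteins and BST2 that act at membranes, the MX and GBP GTPases, and sensors such as RIGI and IFIH1. Undifferentiated pluripotent cells are known for a weak response to interferon and for a constitutive level of some of these same genes.

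The sequence before the start of transcription was examined in those members with an entry in RefSeq's promoter table, 29 of 37, on build GRCh38.p14. A window was the 250 bases before an annotated start, and a gene could have several. Both cores of the signalling pathway were searched: GAAA, any 2 bases and GAAA again, on both strands, which is the core of the type I element, and TTCNNNGAA, the palindromic core of the gamma element. The type I core was in 21 of the 37 windows of these genes (56.76%) and in 1061 of all 35116 windows (3.02%). The gamma core was in 9 of the 37 windows (24.32%) and in 2306 of all windows (6.57%), and the cores overlapped each other in 4 member windows. Among members higher in at least 1 comparison below, 2 of 3 with an entry held the type I core, against 2 of 5 of the lower ones and 10 of 15 of those tested and not called. A match is a description of the letters and not a site of binding. The stretches below are the last 160 bases before the start of 7 genes that changed and of ISG15, a classical target that did not pass the test, with the matched cores in capitals. IFIT3 (chr10:89327837-89327996, plus strand), IFIT5 (chr10:89414408-89414567, plus strand), IFITM1 (chr11:313880-314039, plus strand), GBP1 (chr1:89065209-89065368, minus strand) and ISG15 (chr1:1013337-1013496, plus strand) held the type I core, and IFITM1 also held the gamma core nearer its start. IFI35 (chr17:43006624-43006783, plus strand) held the gamma core alone. IFI16 (chr1:159008831-159008990, plus strand) and SAMHD1 (chr20:36951709-36951868, minus strand) held neither. For IFIT3 and IFI16, which have 2 annotated starts each, the first is shown.
IFIT3: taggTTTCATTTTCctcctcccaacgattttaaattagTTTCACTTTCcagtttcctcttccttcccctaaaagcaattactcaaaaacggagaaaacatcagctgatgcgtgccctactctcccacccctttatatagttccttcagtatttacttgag
IFIT5: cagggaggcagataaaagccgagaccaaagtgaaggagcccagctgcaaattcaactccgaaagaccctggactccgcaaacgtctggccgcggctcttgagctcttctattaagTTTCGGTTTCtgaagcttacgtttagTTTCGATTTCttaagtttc
IFI16: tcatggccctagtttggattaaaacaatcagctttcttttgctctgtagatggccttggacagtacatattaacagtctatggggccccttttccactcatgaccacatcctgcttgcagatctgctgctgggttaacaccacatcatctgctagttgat
IFITM1: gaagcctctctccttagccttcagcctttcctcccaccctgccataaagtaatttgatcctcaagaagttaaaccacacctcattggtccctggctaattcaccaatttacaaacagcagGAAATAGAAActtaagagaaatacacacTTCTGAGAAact
GBP1: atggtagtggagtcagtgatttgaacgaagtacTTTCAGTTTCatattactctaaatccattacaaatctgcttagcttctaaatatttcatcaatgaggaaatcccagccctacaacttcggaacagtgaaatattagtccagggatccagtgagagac
IFI35: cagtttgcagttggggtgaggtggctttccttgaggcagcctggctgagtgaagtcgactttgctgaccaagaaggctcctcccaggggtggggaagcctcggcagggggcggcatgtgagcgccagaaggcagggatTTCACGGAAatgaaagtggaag
SAMHD1: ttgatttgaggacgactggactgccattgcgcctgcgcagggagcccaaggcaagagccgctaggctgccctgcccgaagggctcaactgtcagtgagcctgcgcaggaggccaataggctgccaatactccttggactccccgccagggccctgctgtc
ISG15: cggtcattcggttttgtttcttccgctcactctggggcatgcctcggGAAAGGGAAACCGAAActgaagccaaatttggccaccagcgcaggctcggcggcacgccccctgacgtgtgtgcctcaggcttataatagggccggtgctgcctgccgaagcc

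The labels were checked against marker genes. On the log2(intensity + 32) scale used throughout, KDR was 9.02 and 9.24 on the day 0 arrays and 13.55 to 13.87 on the sorted arrays, PECAM1 6.38 to 6.77 and 12.53 to 13.59, and CDH5, an endothelial cadherin, 5.69 to 5.73 and 12.23 to 13.26. NANOG was 11.99 and 12 at day 0 and 6.39 to 6.68 in the sorted cells. SOX2 was 12.90 and 12.92 at day 0 and 5.83 to 6.91 in the sorted cells, except for 9.31 on the first day 8 array. Of 11 leukocyte and macrophage markers, 9 were measured, 6 of them (PTPRC, CD14, AIF1, CD163, SPI1 and CD3E) were below the array median on all 8 arrays, and their summed intensity was 497 to 531 at day 0 and 535 to 649 in the sorted cells. The summed intensity of 6 yolk sac endoderm markers was 886 and 917 in undifferentiated cells, then 2850 and 20700 (day 4), 518 and 6380 (day 6), 12500 and 9330 (day 8). The summed intensity of 7 fibroblast markers was 33500 and 33100 at day 0 and 10700 to 23100 in the sorted cells. In each comparison with day 0, 3 to 4 of the 7 were called lower (limma), beside 9.91%, 13.6% and 14.1% of all genes. COL3A1 read 0.90, 0.17 and 0.29 against day 0, DCN 0.41, 0.17 and -0.09 and LUM -0.21, -1.09 and -0.73, with none of these called. The fibroblast sum moved with the falls from day 0 reported below, and its part in them was not tested. The ratio of the 3′ to the 5′ ACTB control probe set, which rises as RNA is degraded, was 8.92 and 10.4 at day 0. On the sorted arrays it was 9.18 to 31.0. For GAPDH the same ratio was 1.71 and 1.91 at day 0 and 2.15 to 3.73 on the sorted arrays, with no overlap. RNA quality by this measure therefore differed along with the groups, and its part in the changes from day 0 was not tested. The array medians of the intensity were 88.7 to 93.2, which is 6.92 to 6.97 on the log2 scale.

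The first question was which interferon response genes differed between the sorted cells and day 0. Genes entered the test if they exceeded the median of an array on 2 or more of the 8 arrays, which 28 members and 13647 genes did. With limma, 8 of 28 members passed an adjusted p of 0.05 at day 4 (3 higher, 5 lower), 8 of 28 at day 6 (3 higher, 5 lower) and 8 of 28 at day 8 (2 higher, 6 lower). Over all genes tested, 18.4% were called at day 4 (8.52% higher, 9.91% lower), 23.4% at day 6 (9.73% higher, 13.6% lower) and 24.5% at day 8 (10.4% higher, 14.1% lower). The members' share of 28.6% in each comparison was not far above these backgrounds. At an unadjusted p under 0.05 it was 12, 12 and 10 of 28, beside 31.4%, 35.7% and 38.4% of all genes. The median log2 change of the tested members was 0.26 at day 4, -0.30 at day 6 and -0.08 at day 8, beside 0.02, -0.03 and -0.03 over all genes. The 2 groups did not overlap for 18, 18 and 25 of the 28 members, beside 66.1%, 65.7% and 77.8% of all genes. The 3 comparisons share the day 0 arrays and are not independent of one another. In total, 7 members were called in each of them, IFI16 and IFIT3 higher and TRIM22, SAMHD1, IFITM1, GBP1 and IFI35 lower, while IFIT5, IRF7 and RIGI were called in 1. The filter bears on these counts, because TRIM22, GBP1 and GBP2 passed it through the day 0 arrays only and IFIT3, IFI27, OAS1, GBP4 and IFIH1 through sorted arrays only. Without the first day 0 array the day 4 count was 5, beside 7.26% of all genes, and without the second day 6 array the day 6 count was 12, beside 20.2%. A fit of the day 0 and day 8 arrays alone called 17 members at day 8, beside 49.7% of all genes.

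**Figure D1:**
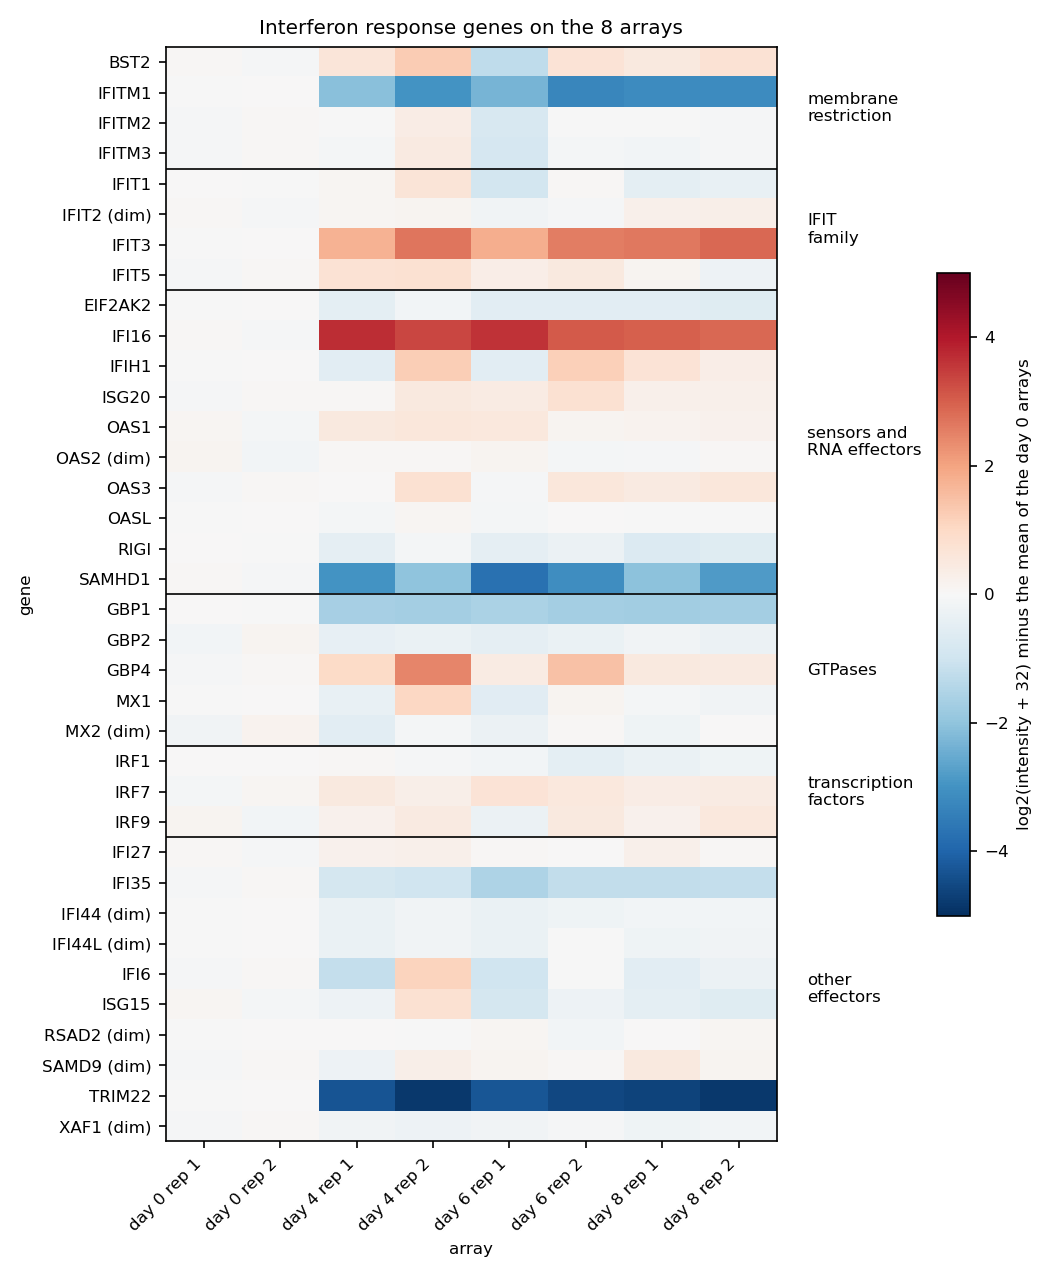
Log2 change of each of the 36 measured interferon response genes from its day 0 mean (colour, on the log2(intensity + 32) scale) on each of the 8 arrays (columns), grouped by role. Genes marked dim were not tested. IFI16 and IFIT3 are higher on all 6 sorted arrays, and TRIM22, SAMHD1, IFITM1, GBP1 and IFI35 are lower on all 6.

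In the IFIT family, whose proteins bind viral RNA ends, IFIT3 rose. IFIT3 measured 6.51 and 6.57 in undifferentiated cells, then 8.27 and 9.22 (day 4), 8.34 and 9.11 (day 6), 9.17 and 9.42 (day 8). Both undifferentiated samples were under their array's median and all 6 sorted ones over it, with no overlap. The log2 change was 2.20 ± 0.36 (SE, n = 2 against 2; 4.61-fold, adjusted p = 0.00686, limma) at day 4, 2.18 (4.55-fold, adjusted p = 0.00625) at day 6 and 2.75 (6.75-fold, adjusted p = 0.00236) at day 8. A second IFIT3 probe set changed far less, by 0.41, 0.12 and 0.48. It was the brighter of the 2 at day 0 (mean 7.26 against 6.54) and was above the median on all 8 arrays. The mean over both probe sets gave 1.31, 1.15 and 1.62 (adjusted p = 0.0115, 0.0164 and 0.00439, limma). The IFIT3 call was lost at day 4 without the first (adjusted p = 0.0574) or the second (0.0535) day 0 array, and at day 6 without the first (0.0535).

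IFIT5, a family member that also binds cellular RNAs, measured 8.28 and 8.39 in undifferentiated cells, then 9.05 and 9.09 (day 4), 8.68 and 8.81 (day 6), 8.49 and 8.08 (day 8). It was highest at day 4, where neither array overlapped day 0, and at day 8 its arrays lay on either side of the day 0 values. It rose at day 4 by 0.74 ± 0.18 on the log2 scale (1.67-fold, adjusted p = 0.0344, limma), and its changes of 0.41 at day 6 and -0.05 at day 8 did not pass (adjusted p = 0.159 and 0.873). Its other probe set read 0.69, 0.67 and 0.48 against day 0, and with the mean of both IFIT5 was called at day 6 as well (0.54, adjusted p = 0.0198). The day 4 call of IFIT5 did not hold without any one of the day 0 or day 4 arrays (adjusted p = 0.0822 to 0.237). IFIT1, the best-known member, was 7.56 and 7.55 at day 0 and between 6.65 and 8.18 on the sorted arrays, and did not pass in any comparison. IFIT2 was below the array median on all 8 arrays, at 6.50 to 6.97, and was not tested. The family's members therefore had different patterns, and 1 of 4 was called in each of the 3 comparisons.

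**Figure D2:**
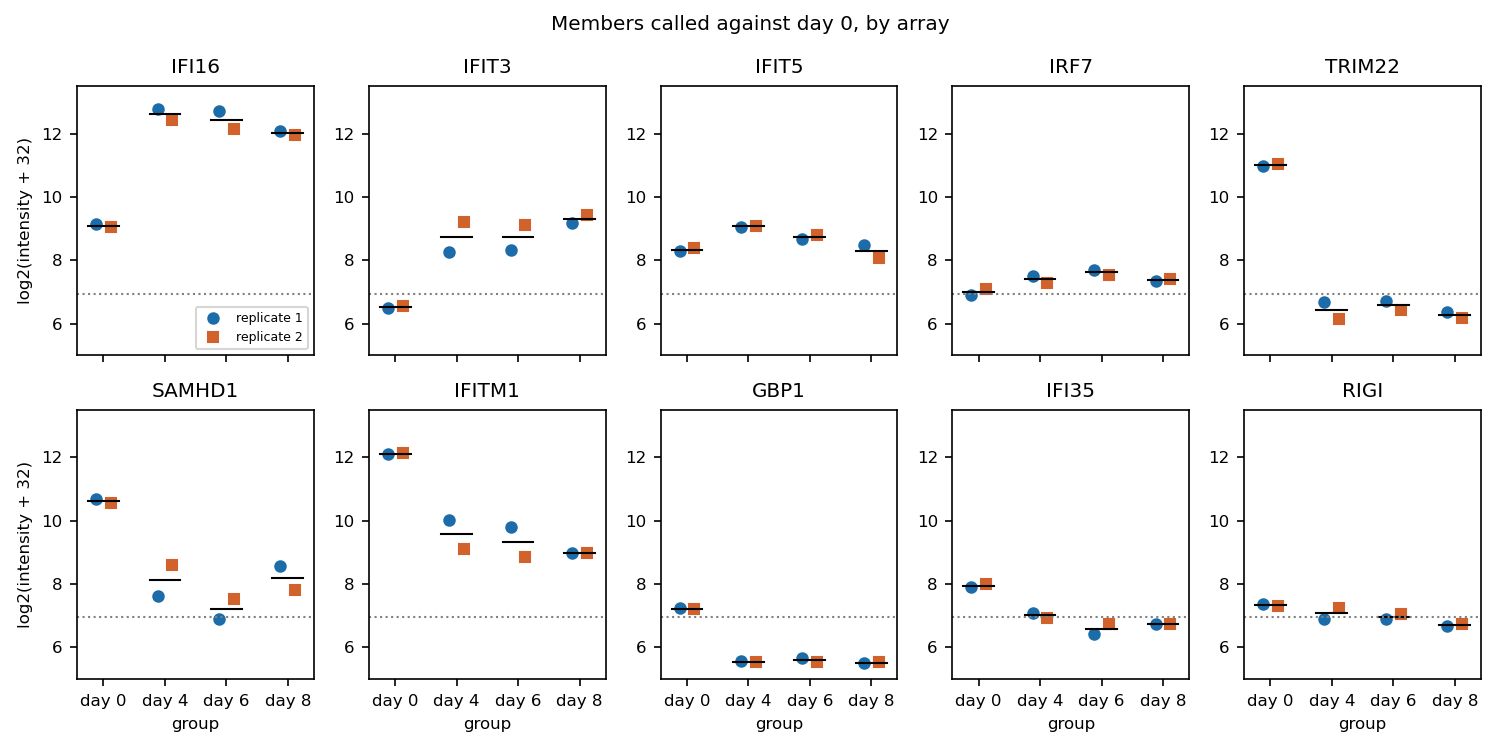
Log2(intensity + 32) of the 10 interferon response genes called against day 0 in at least 1 comparison, 1 point per array and day, with the dotted line at the mean of the array medians. TRIM22 falls from 10.97 and 11.03 at day 0 to between 6.16 and 6.73 in the sorted cells, below that line, while IFI16 rises from 9.04 and 9.14 to between 11.95 and 12.78.

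Among the nucleic acid sensors and RNA-degrading effectors, IFI16 rose and SAMHD1 fell. IFI16, a sensor of DNA in the nucleus and cytoplasm, measured 9.14 and 9.04 in undifferentiated cells, then 12.78 and 12.43 (day 4), 12.70 and 12.15 (day 6), 12.08 and 11.95 (day 8). Every sorted array was well above both day 0 arrays, and IFI16 was also among the 5 members with the highest mean over all arrays. It rose by 3.52 ± 0.23 (11.4-fold, adjusted p = 0.000121, limma) at day 4, 3.34 (10.1-fold, adjusted p = 0.000148) at day 6 and 2.92 (7.58-fold, adjusted p = 0.000269) at day 8. Its other 2 probe sets read 2.46 to 3.65.

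SAMHD1, which degrades the nucleotides needed for viral DNA synthesis, measured 10.69 and 10.56 in undifferentiated cells, then 7.63 and 8.61 (day 4), 6.90 and 7.53 (day 6), 8.56 and 7.80 (day 8). All sorted arrays lay below day 0, with replicate gaps of up to 0.98. The log2 change was -2.51 ± 0.40 (5.69-fold lower, adjusted p = 0.00606, limma) at day 4, -3.41 (10.7-fold lower, adjusted p = 0.00142) at day 6 and -2.45 (5.45-fold lower, adjusted p = 0.00576) at day 8. Of its 6 probe sets, 3 others read -1.40 to -2.70, and 2 that were below the median on all arrays read -0.19 to -0.35. The mean over all of them gave -1.57, -1.82 and -1.58 (adjusted p = 0.00618, 0.00296 and 0.00503). Without the first day 0 array the SAMHD1 call at day 4 was lost (adjusted p = 0.0512).

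RIGI, listed in the source as DDX58 and a cytoplasmic sensor of viral RNA, measured 7.38 and 7.31 in undifferentiated cells, then 6.89 and 7.25 (day 4), 6.88 and 7.05 (day 6), 6.67 and 6.74 (day 8). It was lowest on the day 8 arrays, where it fell by 0.64 ± 0.14 on the log2 scale (adjusted p = 0.0183, limma). At day 4 and day 6 it read -0.28 and -0.38 and did not pass (adjusted p = 0.232 and 0.101). Its other 2 probe sets read -0.14 and -0.26 at day 8. The latter, of the cross-hybridizing type, was above the median on all 8 arrays. The mean over the 3 did not pass at day 8 (adjusted p = 0.0828, limma), while a larger offset gave -0.37 (adjusted p = 0.0176). The RIGI call was also lost without any one of the day 0 or day 8 arrays (adjusted p = 0.0844 to 0.124). EIF2AK2, the RNA-activated kinase PKR, measured 10.48 and 10.50 in undifferentiated cells, then 10.02 and 10.34 (day 4), 9.98 on both arrays (day 6), 9.96 and 9.90 (day 8). All 6 sorted arrays were below day 0, by -0.31, -0.51 and -0.56 in the means, and none of the 3 passed (adjusted p = 0.286, 0.0823 and 0.0603). IFIH1, the sensor MDA5, measured 6.45 and 6.47 in undifferentiated cells, then 5.95 and 7.70 (day 4), 5.94 and 7.67 (day 6), 7.16 and 6.81 (day 8). Its replicates at day 4 and day 6 lay on either side of the undifferentiated values. OAS1, OAS3, OASL and ISG20 were tested and not called, with changes against day 0 of -0.03 to 0.58, and OAS2 was below the median on all arrays.

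Of the 4 factors that restrict viruses at membranes, IFITM1 fell and the other 3 were not called. IFITM1 measured 12.10 and 12.13 in undifferentiated cells, then 10.02 and 9.12 (day 4), 9.80 and 8.84 (day 6), 8.97 and 8.98 (day 8). It was lower on all 6 sorted arrays, and the second array of day 4 and of day 6 was lower than the first. The log2 change was -2.55 ± 0.39 (5.84-fold lower, adjusted p = 0.00499, limma) at day 4, -2.79 (6.94-fold lower, adjusted p = 0.003) at day 6 and -3.14 (8.83-fold lower, adjusted p = 0.00181) at day 8. IFITM2 measured 12.67 and 12.82 in undifferentiated cells, then 12.71 and 13.11 (day 4), 11.96 and 12.71 (day 6), 12.72 and 12.69 (day 8). IFITM3 measured 12.45 and 12.56 in undifferentiated cells, then 12.42 and 12.97 (day 4), 11.65 and 12.41 (day 6), 12.38 and 12.43 (day 8). Both had the highest means of the members and stayed within 0.47 of day 0 in the group means, in either direction. IFITM2 and IFITM3 are read only by probe sets of a type that can cross-hybridize, and a probe set annotated to both IFITM1 and IFITM2 read -2.50, -3.21 and -2.89, so the split among these near-identical genes is uncertain. BST2, or tetherin, which holds budding virus at the cell surface, measured 10.58 and 10.47 in undifferentiated cells, then 11.14 and 11.78 (day 4), 9.27 and 11.19 (day 6), 11.00 and 11.26 (day 8). Of its 6 sorted arrays 5 were above day 0 and 1 was below, and the changes of 0.93 ± 0.57, -0.30 and 0.60 did not pass (adjusted p = 0.33, 0.761 and 0.487, limma).

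Of the GTPases, GBP1 fell. GBP1, an interferon gamma target that coats intracellular pathogens, measured 7.24 and 7.21 in undifferentiated cells, then 5.56 and 5.54 (day 4), 5.66 and 5.53 (day 6), 5.50 and 5.54 (day 8). The sorted values were tightly grouped and near the dim end of the arrays. The log2 change was -1.68 ± 0.07 (adjusted p = 1.29e-05, limma) at day 4, -1.64 (adjusted p = 1.42e-05) at day 6 and -1.71 (adjusted p = 1.08e-05) at day 8. Of 3 other GBP1 probe sets, all below the median on every array, 2 read -0.83 to -1.16 and 1 read -0.05 to 0.03. The size at this level rests on the offset, with -2.90, -2.80 and -3.01 for an offset of 1 and -0.78, -0.77 and -0.79 for a larger offset, the call holding under each. GBP4 measured 6.45 and 6.55 in undifferentiated cells, then 7.47 and 8.95 (day 4), 6.91 and 7.96 (day 6), 7.0 and 6.96 (day 8). All its sorted arrays were above day 0, yet the day 4 change of 1.71 ± 0.50 missed the threshold (adjusted p = 0.0597). GBP2 and MX1 were tested and not called, and MX2 was above the median on 1 array and not tested.

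Of the transcription factors, IRF7, a driver of type I interferon production, rose at day 6. IRF7 measured 6.91 and 7.09 in undifferentiated cells, then 7.49 and 7.30 (day 4), 7.70 and 7.54 (day 6), 7.36 and 7.41 (day 8). All 6 sorted arrays were above both day 0 arrays. The change at day 6 was 0.62 ± 0.13 (1.54-fold, adjusted p = 0.0154, limma), and those at day 4 and day 8, 0.39 and 0.38, did not pass (adjusted p = 0.0846 and 0.0726). With a larger offset the day 6 change was 0.39 (adjusted p = 0.0145). Without the first or the second day 0 array the IRF7 call was lost (adjusted p = 0.144 and 0.0683). IRF9, the DNA-binding partner of STAT2, read 0.34, 0.08 and 0.37 against day 0, and IRF1, a factor of the gamma response, 0, -0.31 and -0.29, none of which passed.

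Among the remaining effectors, TRIM22 had the most marked fall of the tested members. TRIM22, a ubiquitin ligase that restricts several viruses, measured 10.97 and 11.03 in undifferentiated cells, then 6.68 and 6.16 (day 4), 6.73 and 6.44 (day 6), 6.37 and 6.18 (day 8). It went from well above the array median to below it on all 6 sorted arrays. The log2 change was -4.58 ± 0.20 (23.9-fold lower, adjusted p = 1.92e-05, limma) at day 4, -4.41 (21.3-fold lower, adjusted p = 2.32e-05) at day 6 and -4.73 (26.5-fold lower, adjusted p = 1.65e-05) at day 8. With sorted values this dim the size rests on the offset: it was -5.23, -4.95 and -5.44 with an offset of 1, and -3.56, -3.48 and -3.63 with a larger one. IFI35, an adaptor in innate signalling, measured 7.91 and 7.99 in undifferentiated cells, then 7.09 and 6.94 (day 4), 6.42 and 6.73 (day 6), 6.73 and 6.74 (day 8). The groups did not overlap, and it fell, with log2 changes of -0.93 ± 0.13 (adjusted p = 0.00363, limma), -1.38 (adjusted p = 0.00061) and -1.21 (adjusted p = 0.00102), or -0.61, -0.84 and -0.76 with a larger offset. ISG15, the ubiquitin-like protein that tags other proteins, measured 9.59 and 9.40 in undifferentiated cells, then 9.26 and 10.27 (day 4), 8.60 and 9.23 (day 6), 9.0 and 8.90 (day 8). IFI6, a mitochondrial and endoplasmic reticulum protein, measured 8.29 and 8.42 in undifferentiated cells, then 7.16 and 9.47 (day 4), 7.35 and 8.35 (day 6), 7.84 and 8.06 (day 8). Neither was called, and at day 4 the pair of arrays lay on either side of day 0 for both. IFI27 was not called either, while IFI44, IFI44L, RSAD2, XAF1 and SAMD9 were below the median on all 8 arrays, at 5.61 to 6.50, and were not tested. With no filter, IFI44 was called as lower at day 4 and day 6, and 9, 9 and 8 of 36 members were called, beside 12.6%, 15.8% and 16.6% of 19775 genes.

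**Figure D3:**
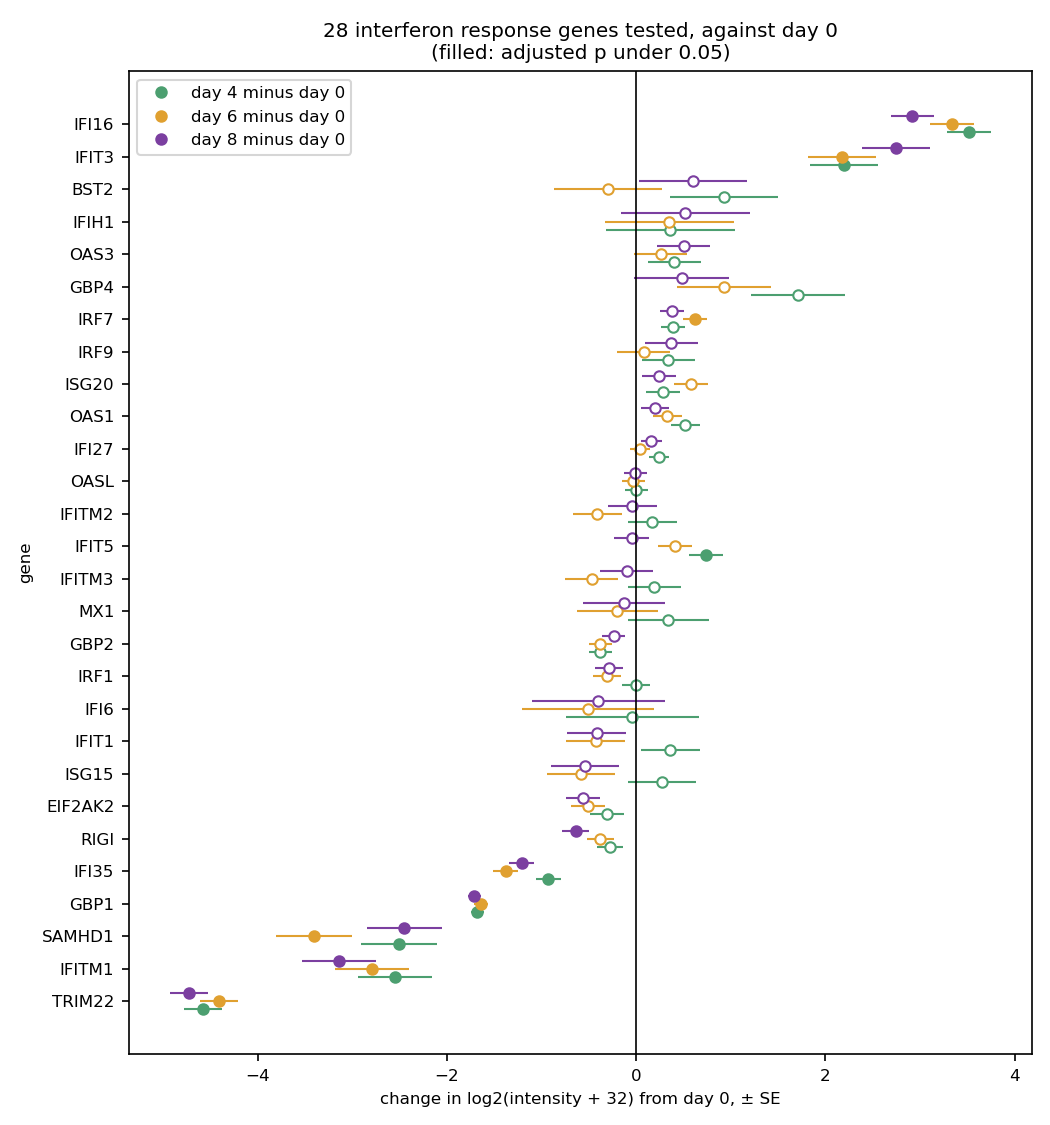
Log2 change against day 0 (horizontal axis, with its standard error) of the 28 tested interferon response genes at day 4, day 6 and day 8, filled where the adjusted p from limma was under 0.05. The changes run from -4.73 for TRIM22 at day 8 to 3.52 for IFI16 at day 4, with 8 filled symbols at each day.

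The second question was whether the members changed between days within the sort. No member passed in day 6 against day 4, day 8 against day 6 or day 8 against day 4, and over all genes 0% were called in each (limma). At an unadjusted p under 0.05 these were 2 members (IFIT1 and IFI35), 2 (IFIT5 and SAMHD1) and 5 (IFIT1, IFIT5, IFI16, GBP4 and RIGI) of 28, beside 5.29%, 2.48% and 6.5% of all genes. The members' changes ranged from -1.23 to 0.31, from -0.47 to 0.97 and from -1.23 to 0.55. The lowest adjusted p of a member was 0.881, 0.955 and 0.724, the last for IFIT5, which read -0.79 ± 0.18 from day 4 to day 8 with a 95% interval of -1.22 to -0.35. GBP4 read -1.23 ± 0.50 and IFI16 -0.59 ± 0.23 over the same days. Groups did not overlap for 11, 10 and 13 of 28 members, beside 24.4%, 25.5% and 38% of all genes.

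A further pattern lay between replicates rather than between groups. At day 4 the second array read more than 0.5 (log2) above the first for 11 of 28 members, beside 8.65% of all genes, and at day 6 for 13 of 28, beside 12.2%. It did so at both days for 11 of 28 members (39.3%) and 629 of 13647 genes (4.6%), whereas the first array was the higher by that margin at both days for 1 member (3.6%), IFITM1, and 10.2% of genes. At day 0 and at day 8 no member differed in this direction by that margin, beside 0.154% and 2.46% of all genes. The 11 were BST2, GBP4, IFI6, IFIH1, IFIT1, IFIT3, IFITM3, ISG15, MX1, OAS3 and SAMHD1. IFIH1 differed by 1.75 at day 4 and 1.73 at day 6, IFI6 by 2.31 and 1.00, BST2 by 0.64 and 1.92, GBP4 by 1.48 and 1.05, and MX1 by 1.40 and 0.70. MX1, the classical marker of a type I response, was 6.57 and 7.97 (day 4) and 6.38 and 7.08 (day 6), against 6.90 and 6.97 before differentiation. IFIH1 and MX1 were above the array median on 3 arrays each, among them the second arrays of day 4 and day 6. Without those second arrays neither would have passed the filter. The differences are between 2 single arrays at each day and have no test. The yolk sac endoderm sum moved in the same direction, from 2850 to 20700 at day 4 and from 518 to 6380 at day 6, and the ACTB ratio in the other, from 19.0 to 9.18 and from 31.0 to 16.0. The same ratio for the GAPDH control differed little between these arrays, at 2.22 and 2.15 (day 4) and 3.73 and 3.41 (day 6). Fibroblast markers summed to 23100 and 14000 (day 4) and to 18700 and 10700 (day 6), and the part of each of these in the pattern was not tested.

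**Figure D4:**
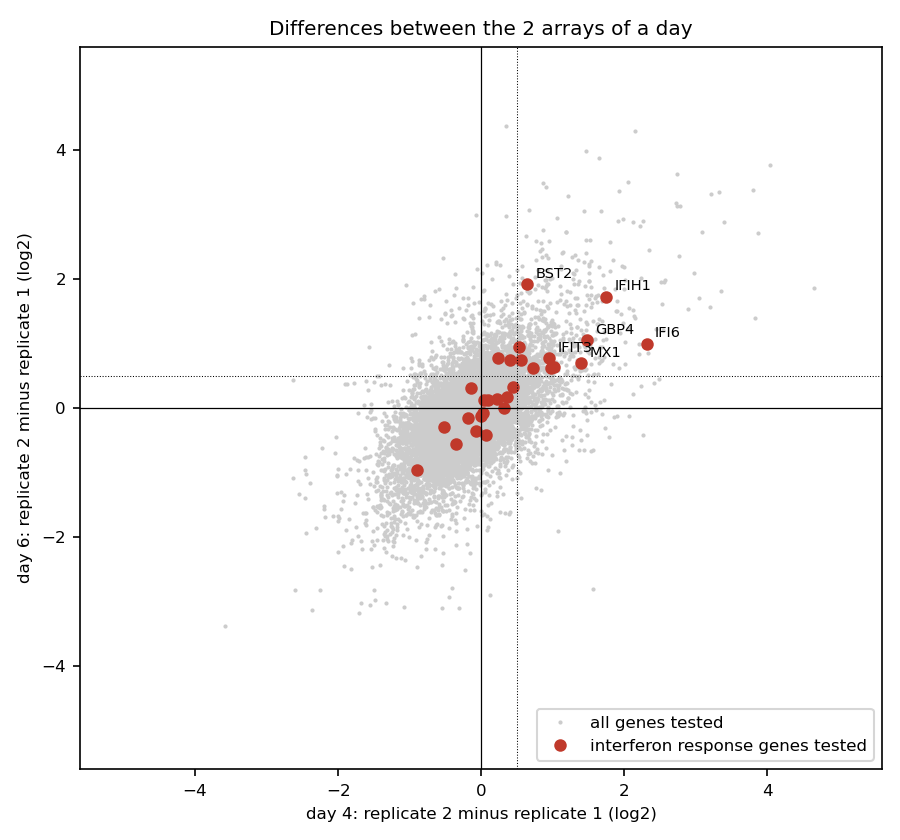
Difference of the second from the first array at day 4 (horizontal) and at day 6 (vertical), in log2(intensity + 32), for the tested interferon response genes over all genes tested, with dotted lines at 0.5. Of the 28 members, 11 lie above both lines, among them IFIH1 at 1.75 and 1.73.

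The counts also moved when the same replicate of both days was left out, for all genes as well as for the members. Without the first arrays of day 4 and of day 6, chosen once the values were known, 19 members were called at day 4 (14 higher), 15 at day 6 (8 higher) and 17 at day 8 (7 higher), beside 34.9%, 44.7% and 49.7% of all genes. Without the second arrays of the same days the counts were 16 (7 higher), 20 (6 higher) and 17 (7 higher), beside 35.5%, 38.1% and 49.7%. With the second arrays left out, 11 members were also called in day 8 against day 6, beside 17.6% of all genes, and 7 in day 8 against day 4, beside 19.2%. The cause of these shifts was not tested. Each of these fits has 1 array at day 4 and at day 6, whose spread is taken from the remaining groups. No called member changed direction in any of them.

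The rest of the pathway was taken from 6 further lists of 116 genes, 85 of which were tested. Over these lists 20 genes (23.5%), 29 (34.1%) and 23 (27.1%) were called at day 4, day 6 and day 8, beside 18.4%, 23.4% and 24.5% of all genes. The counts of each list below are to be read beside the shares of all genes called higher (8.52%, 9.73% and 10.4%) and lower (9.91%, 13.6% and 14.1%). Of the interferon ligands, 9 were measured and 0 were above the array median on any array, at 5.40 to 6.91 on the log2 scale. Among 14 receptors, kinases and factors, 3 were higher and 0 lower at day 4, 3 higher and 1 lower at day 6, and 2 higher and 1 lower at day 8. JAK1, a kinase bound to both receptor types, was 9.88 and 9.91 at day 0 and 11.72 to 12.07 in the sorted cells. Both day 0 arrays were below every sorted array, and JAK1 rose by 2.11 ± 0.19 (4.30-fold, adjusted p = 0.000486, limma), 1.97 and 2.01. The mean over its probe sets gave 1.04, 1.15 and 1.21 (adjusted p = 0.0107, 0.00618 and 0.00505). IFNAR1, a chain of the type I receptor, rose by 0.65, 0.62 and 1.12 (adjusted p = 0.0496, 0.0479 and 0.00541), or by 0.65 at day 8 with the mean of its probe sets. IFNGR1, the ligand-binding chain of the gamma receptor, rose by 0.94 at day 4 (adjusted p = 0.0385) and 0.85 at day 6 (0.0455), and IRF3, a factor downstream of the sensors, fell, with -0.76 at day 6 (0.0173) and -0.73 at day 8 (0.0198). The IFNGR1 calls were lost with the mean of its probe sets (adjusted p = 0.475 and 0.45). Without the first day 0 array, IFNAR1 did not pass on any day (adjusted p = 0.291, 0.27 and 0.0624), nor did IFNGR1 (0.167 and 0.177) or IRF3 (0.159 and 0.169). Each of the 3 also lost calls without the second day 0 array (adjusted p = 0.121 to 0.243) and without single sorted arrays. Of 11 negative regulators of the pathway, 0 passed in any comparison.

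A list of nucleic acid sensing had 12 tested genes, among them TLR4, which senses bacterial products rather than nucleic acid. Of the 12, 2 were higher at day 4, 3 at day 6 and 3 at day 8, and 1 was lower at day 6. AIM2, a sensor of cytoplasmic DNA and a relative of IFI16, was 7.26 and 7.17 at day 0 and 8.68 to 9.55 in the sorted cells. It rose by 1.92, 1.97 and 1.65 (adjusted p = 0.00506, 0.00406 and 0.00813, limma), with no overlap. TLR4, a surface receptor for bacterial products, rose by 1.53, 1.30 and 1.21 (adjusted p = 0.0093, 0.0153 and 0.0194). STING1, the adaptor of DNA sensing, rose by 1.58 at day 6 (adjusted p = 0.0452) and 2.00 at day 8 (0.0195), and DHX58, a relative of RIGI, fell by 0.37 at day 6 (0.0328). With a larger offset TLR4 read 1.03, 0.85 and 0.78 and DHX58 -0.21 at day 6. Without the second day 0 array, AIM2 was lost at day 4 and day 8 (adjusted p = 0.0509 and 0.0688), and so were all calls of TLR4 (0.0662, 0.0908 and 0.106), STING1 (0.169 and 0.0962) and DHX58 (0.163). Each of the 4 also lost at least 1 call without another single array, with adjusted p of up to 0.21.

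Of 35 other tested interferon-induced genes, 1 was higher and 6 lower at day 4, 3 higher and 11 lower at day 6, and 1 higher and 9 lower at day 8. IDO1, a tryptophan-degrading enzyme induced by interferon gamma, was 12.47 on both day 0 arrays and 7.06 to 7.38 in the sorted cells. It fell from a bright signal to near the array median, with log2 changes of -5.22 ± 0.16 (adjusted p = 7.11e-06, limma), -5.29 and -5.09. LGALS3BP, a secreted glycoprotein, fell (-2.70, -2.85 and -2.56), as did HERC6 (-1.33, -1.67 and -1.51) and DDX60, a helicase linked to RNA sensing (-0.97, -1.32 and -1.40), and IDO1 and these 3 held their calls under every alternative that gave a value. HERC6 read -0.61, -0.80 and -0.72 with the mean of its probe sets, and DDX60 read -0.59, -0.77 and -0.80 with a larger offset. Against this direction TNFSF10, the death ligand TRAIL, which was named after its values were seen, rose by 2.46, 3.41 and 2.78, or by 1.49, 2.28 and 1.75 with a larger offset. TNFSF10, TLR4 and STING1 passed the filter through sorted arrays only, and DDX60, PSMB8 and PSMB9 through the day 0 arrays only. In each case these were the arrays where the gene was high, so the calls are not independent of the filter. Of 13 tested genes of MHC class I presentation and the immunoproteasome, 2 were higher and 6 lower at day 4, and 1 higher and 6 lower at day 6 and at day 8. The immunoproteasome subunits PSMB8 (9.42 and 9.51 at day 0, 6.14 to 6.46 in the sorted cells) and PSMB9 (8.72 and 8.74, then 6.21 to 6.32) did not overlap between groups. PSMB8 fell (-3.10, -3.18 and -3.15), as did PSMB9 (-2.48, -2.48 and -2.41) and the peptide transporter subunits TAP1 (-1.48, -1.68 and -1.56) and TAP2 (-1.32, -1.68 and -1.47). With the mean of its probe sets TAP2 read -0.34, -0.56 and -0.47 (adjusted p = 0.0286, 0.00347 and 0.00709), and with a larger offset PSMB9 read -1.59, -1.60 and -1.56. HLA-E, a class I molecule read by natural killer cells and named after its values were seen, rose by 2.18, 2.08 and 2.38, and was not called at day 4 or day 6 without the first (adjusted p = 0.0661 and 0.0681) or the second (0.0614 and 0.0621) day 0 array.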

How the data were processed

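RNA from H9 cells was extracted with Trizol and hybridised to 8 Affymetrix expression arrays, per the labels' protocols. The authors deposited 1 intensity per probe set, made with MAS5 per the submitters' processing notes; its version, scaling target and background settings are not given in the sources used here. Array values have no read depth, and 2 arrays a group limit the precision. The labels call the arrays biological replicates without naming separate cultures, so that p-values measure only the spread between these arrays. For 3 sorted arrays 1 label gives day 4 while the title, description and stage give day 6 or day 8, and the title was used. Of 54675 probe sets, 62 were controls, 41091 had 1 gene symbol in the platform annotation and 1801 several.

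The deposited intensity was used as log2(value + 32) with no further scaling. A gene was 1 probe set, that with the highest mean, and a cross-hybridizing type entered only in the absence of another. Genes exceeding an array's median on 2 or more arrays were tested with limma 3.58.1 in R 4.3.3 (lmFit and eBayes with trend, 1 term per group over all 8 arrays, 4 residual and 2.84 prior degrees of freedom). P-values were two-sided and adjusted by Benjamini-Hochberg over all 13647 genes in each of 6 comparisons. On simulated data with 200 changed genes, log2 changes of 1, 2 and 3 were recovered at 41.8%, 86.6% and 95.5% for day 4 against day 0, and at 44.8%, 86.6% and 97% for day 8 against day 4. False calls were 4 at day 4, 14 at day 6 and 0 at day 8 against day 0, and 20 for day 8 against day 4. Far fewer genes were changed there than were called against day 0 in the data, so recovery may differ. The simulated noise was also independent between arrays, whereas replicate differences in the data correlated at 0.19 to 0.60 among the sorted days. Recovery within the sort may therefore differ too. Errors written ± are the fit's standard error.

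The members and pathway lists were chosen with earlier results of these data known. The text gives array by array the members called in any comparison and the 5 with the highest mean, and names up to 4 genes of each pathway list by smallest p. TNFSF10, HLA-E and the other members given array by array were chosen after their values were seen. Alternatives, tried 1 at a time, were the offset (1 or a larger one), median centring, quantile normalization, no filter or one at the 75th percentile, the mean of probe sets, no trend, the arrays compared alone, a replicate block and each array left out. Leaving out the same replicate of day 4 and day 6 together, using the 6 sorted arrays alone with or without a replicate block, and running the alternatives on the pathway lists were chosen after the data were seen. Replicate numbers were not taken to pair the arrays, since the labels name nothing shared between equal numbers and each group has only 2: the correlation of replicate differences was -0.02 to 0.02 between day 0 and the other days, and 0.19 to 0.60 among the sorted days.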

Additional observations from a re-analysis of the deposited data

How the results depend on the processing

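Of the 24 member calls against day 0, 18 held under every alternative that gave a value and 6 were lost under at least 1, and no call reversed. The calls of TRIM22, GBP1, IFI16, IFI35 and IFITM1 were among those that held. GBP1 and IFI35 gave no value under the filter at the 75th percentile, where they were not tested. GBP1 was also not tested with the mean of its probe sets. TRIM22 and GBP1 entered the main test through the day 0 arrays only, where they were high, so their calls are not independent of the filter. The member counts of 8 at day 4, 8 at day 6 and 8 at day 8 ranged from 5 to 11, 6 to 12 and 7 to 9 when 1 array was left out, and stayed at 0 within the sort. A filter at the 75th percentile, which tests fewer genes, gave 5 at day 6 and 5 at day 8, and the arrays of day 0 and day 8 alone gave 17 at day 8. Without the first arrays of day 4 and day 6 together, the counts were 19, 15 and 17, and 2 members (GBP4 and MX1, lower) were called in day 8 against day 4, beside 0.154% of all genes. Without the second arrays of those days they were 16, 20 and 17, with 7 called in day 8 against day 4 and 11 in day 8 against day 6. Of all genes tested, 34.9%, 44.7% and 49.7% were called without the first arrays and 35.5%, 38.1% and 49.7% without the second, and 49.7% with day 0 and day 8 alone. The number of all genes called also moved when 1 array was left out, so those ranges do not describe the members alone. With the replicate number as a block, the member counts were 10, 9 and 8 against day 0, beside 22.3% of all genes at day 4 and 28.4% at day 6. The block counts were 0 within the sort, where a block over the 6 sorted arrays alone also gave 0. Under the block GBP4 and OAS1 were gained at day 4 and ISG20 at day 6.

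The pathway lists had 20, 29 and 23 of 85 genes called against day 0 (23.5%, 34.1% and 27.1%). Leaving out 1 array gave 11 to 25 at day 4, 14 to 30 at day 6 and 13 to 30 at day 8, where the low counts came without a day 0 array (12 and 11, 15 and 14, 13 and 14), without a day 8 array at day 6 (19 and 19), and without the second day 8 array at day 8 (15). As the number of all genes called moved in these fits too, the ranges do not describe the pathway lists alone. The compared arrays alone gave 47 at day 8 (55.3%, beside 49.7% of all genes). Without the first arrays of day 4 and day 6 the counts were 32 at day 4 and 47 at day 8. Without the second ones they were 36, 47 and 47, with 11 in day 8 against day 4 and 13 in day 8 against day 6. The block gave 21, 32 and 29, beside 22.3% of all genes at day 4 and 28.4% at day 6. Under it IFNAR1 was lost at day 4 and day 6 (adjusted p = 0.0534 and 0.0508, limma) and STING1 was gained at day 4 (0.0344). The cause of these shifts was not tested. The filter at the array median left 8 dim members out of the test, and their signal over background was not measured.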
